A study of Homo sapiens with 12 samples.

Results

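This report describes how the effect of EP300 siRNA on transcript levels differed between AC16 cells exposed to hydrogen peroxide (H2O2) and cells that were not. The quantity described is the interaction, computed for each gene as the log2 fold change of EP300 siRNA against control siRNA with H2O2 minus the same log2 fold change without it. Equally, it is the log2 response to H2O2 with EP300 siRNA minus that with control siRNA, so a negative value means that the gene was lower in the doubly treated cells than the separate effects add up to. All 12 libraries of the series enter it, and 13171 of the 17197 gene symbols in the deposited table had enough counts to be tested.

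AC16 is an established human line, a fusion of adult heart ventricle cells with a transformed fibroblast line, and every library comes from it. Cells were transfected in medium without serum, with either control or EP300 siRNA. Part of each set was exposed 12 h later to H2O2, at 200 mM by the design text and for 1 h; the unit could not be checked here. RNA was taken after 48 h. The groups are siNC (control siRNA, libraries 1 to 3), siEP300 (EP300 siRNA, libraries 4 to 6), siNC.H2O2 (control siRNA and H2O2, libraries 7 to 9) and siEP300.H2O2 (both, libraries 10 to 12), with 3 libraries each. Whether libraries of 1 group are separate cultures is not stated in the labels, so p-values measure the spread between these libraries, which may be technical.

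EP300 encodes p300, a lysine acetyltransferase that acetylates histones at enhancers and promoters and is recruited by many transcription factors, among them HIF-1, NF-kB, p53, SMADs and AP-1. CREBBP is its close paralog. H2O2 is a membrane-permeant oxidant that damages DNA and activates stress-responsive transcription factors, and cells that survive a pulse of it often leave the cell cycle and secrete matrix proteins, proteases and cytokines.

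EP300 itself stood at 101, 69.1 and 80.1 CPM (counts relative to the scaled library total) in siNC, at 36.3, 36.8 and 36.7 in siEP300, at 59.9, 80.4 and 89.9 in siNC.H2O2 and at 30.1, 26.9 and 26.5 in siEP300.H2O2. Every EP300 siRNA library lay below every control siRNA library in both conditions. The knockdown did not pass the test for a difference between conditions (interaction -0.28 ± 0.20, SE of the fit, edgeR adjusted p = 0.55). For EP300, siNC library 1 was the highest of its group and siNC.H2O2 library 7 the lowest, so leaving both out must lower the interaction. It was then -0.59 (edgeR adjusted p = 0.00207). The shift down from the full fit was fixed by that choice of libraries. That fit is therefore not separate evidence on whether the knockdown differed between conditions. In the fits that left out 1 library the interaction of EP300 lay between -0.43 and -0.15, and 0 of these fits called it. CREBBP did not pass either, with an interaction of 0.02 ± 0.12 (edgeR adjusted p = 0.96). EP300 siRNA raised it alike in both conditions, by 0.48 on the log2 scale without H2O2 and 0.50 with it (edgeR adjusted p = 0.00024 and 0.00019). For the EP300 siRNA samples, 1 field of the labels gives MLF1 as the target in place of EP300. With the siRNA, EP300 was at 43.93% of control siRNA without H2O2 and 36.29% with it. MLF1 was at 86.14% and 82.05%, called lower in both conditions (edgeR adjusted p = 0.0052 and 0.00069). The interaction of MLF1 was -0.07 ± 0.08 (edgeR adjusted p = 0.75).

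The AC16 libraries held little of the contractile programme of heart muscle. Of 29 cardiomyocyte markers in the table, 18 were under 1 CPM in every library, including the cardiac troponin TNNT2, whose highest library reached 0.156 CPM, and the myosin heavy chains MYH6 and MYH7. Other markers of the list were expressed. Means in siNC were 457 CPM for ATP2A2, 213 for GJA1, 66.4 for MEF2A, 41.8 for NPPB, 41.0 for GATA6 and 12.1 for GATA4. The summed level of the 29 was 852 to 977 CPM in siNC. Of the 14 markers tested, 0 were called in the interaction by edgeR, DESeq2 or limma-voom, and 2 had an unadjusted p under 0.05, 1 each way. By edgeR, 1.12% of all genes tested were called higher and 2.21% lower, so 0 of 14 says little about these markers. Library totals lay between 16081437 and 19033679 estimated counts. Within groups, libraries spread along 1 axis that held 28.6% of the within-group variance, on which siNC library 1 scored 17.6, siEP300.H2O2 library 10 scored 15.8 and siNC.H2O2 library 7 scored -13.9; gene loadings on it followed transcript length with a Spearman correlation of 0.646 across genes.

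At a Benjamini-Hochberg adjusted p under 0.05 in edgeR's quasi-likelihood test, 148 genes had a positive interaction (1.12% of those tested) and 291 a negative one (2.21%). Called sizes were modest, since 12 of the higher and 39 of the lower genes passed 2-fold, 59 and 115 passed 1.5-fold, and the smallest called values were 0.25 and -0.28 on the log2 scale. The median interaction over all genes tested was -0.00082, with an SD of 0.352 across genes. At an unadjusted p under 0.05, 1006 genes were higher and 1215 lower. The H2O2 responses under the 2 siRNAs, which share no library, correlated across genes with a Pearson r of 0.66 and a Spearman rho of 0.675, and genes are not independent replicates.

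**Figure D1:**
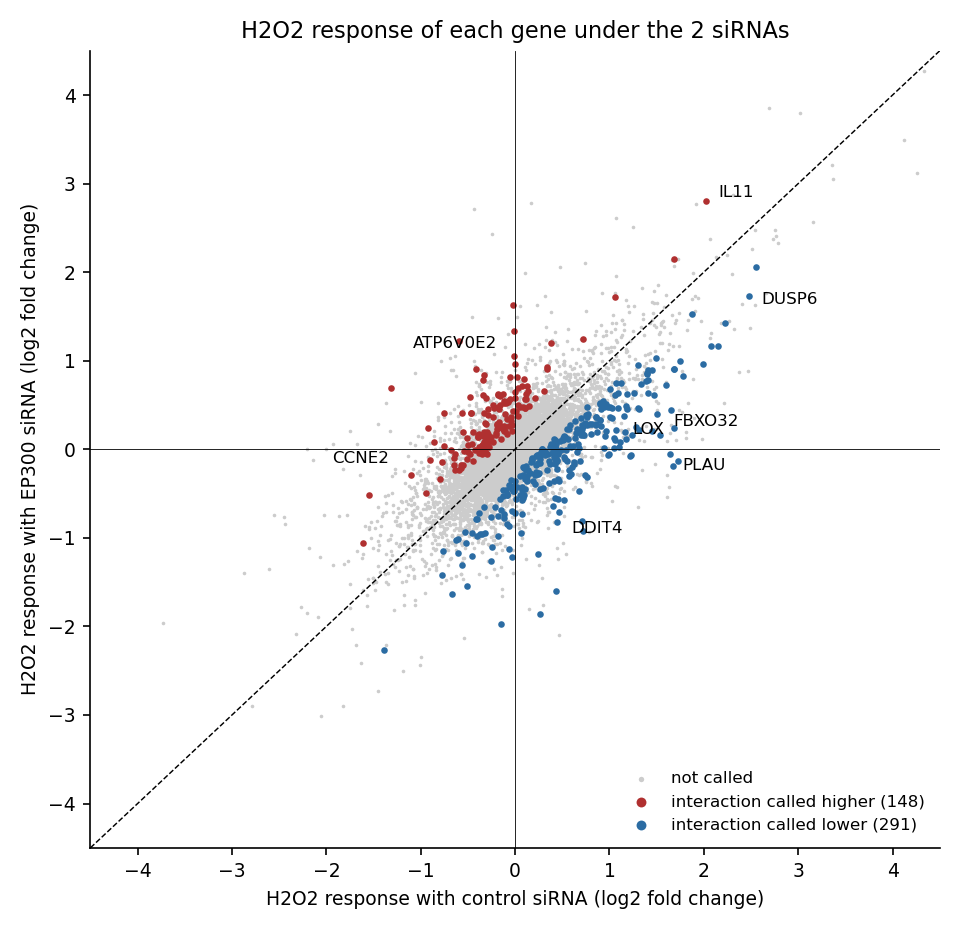
Each point is 1 of the 13171 genes tested, placed by its log2 fold change with H2O2 under control siRNA (horizontal axis) and under EP300 siRNA (vertical axis); 6 genes, none of them called, lie outside the axes. Points on the dashed line have equal responses, the 291 genes called lower in the interaction (blue) lie below it, and the 148 called higher (red) lie above it.

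How these genes behaved in the 4 simple comparisons says what the interaction consisted of. For reference, H2O2 with control siRNA raised 17.8% and lowered 17.4% of all genes tested, and H2O2 with EP300 siRNA raised 15.9% and lowered 15.1%. EP300 siRNA raised 30.1% and lowered 31.4% without H2O2, and raised 28.4% and lowered 30.6% with it. Because these comparisons make up the interaction, the patterns that follow are descriptions of the called genes and not separate evidence.

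Among the 291 genes with a negative interaction, the most frequent pattern was an H2O2 induction seen with control siRNA and not called with EP300 siRNA, which held for 105 genes. A further 82 rose with H2O2 under both siRNAs, by less under EP300 siRNA, and 21 rose with control siRNA and fell with EP300 siRNA. The remaining genes were not raised with control siRNA: 60 were not called there and fell with EP300 siRNA, and 23 fell under both. The median H2O2 response of the 291 genes was 0.46 on the log2 scale with control siRNA and -0.06 with EP300 siRNA. Seen the other way, EP300 siRNA lowered 89 of them in both conditions, lowered 66 with H2O2 and was not called without it, and raised 28 without H2O2 while lowering them with it. It raised 57 without H2O2 with no call in its presence and raised 51 in both conditions. The median EP300 siRNA effect over the 291 was 0.12 without H2O2 and -0.40 with it.

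The 148 genes with a positive interaction split between a lost repression and a gained induction. With control siRNA 55 fell with H2O2 and were not called with EP300 siRNA, 59 were not called with control siRNA and rose with EP300 siRNA, and 16 fell with the first and rose with the second. Another 9 rose under both siRNAs and 9 fell under both. EP300 siRNA lowered 58 of the 148 in both conditions and lowered 32 without H2O2 with no call in its presence. It raised 24 with H2O2 and was not called without it, raised 21 in both conditions and turned from lower to higher in 13. Its effect was the smaller one in size with H2O2 for 97 of the 148, and its median over these genes was -0.53 without H2O2 and -0.00094 with it.

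The 12 largest interactions each way were taken from genes that averaged 5 CPM or more and stayed called in each fit without 1 library, so genes of lower level with larger fitted values are left out. PLAU, which encodes urokinase, the secreted protease that activates plasminogen (chromosome 10, positions 73909177 to 73917497, plus strand of GRCh38), had the most negative one under that rule. It stood at 12.5, 11.5 and 12.3 CPM in siNC, 7.75, 8.16 and 6.70 in siEP300, 36.6, 38.5 and 38.2 in siNC.H2O2 and 7.51, 6.75 and 7.61 in siEP300.H2O2. The siNC.H2O2 libraries were the only high ones, and the 2 EP300 siRNA groups overlapped each other. H2O2 raised PLAU 3.12-fold with control siRNA and left it at 0.968-fold with EP300 siRNA, an interaction of -1.69 ± 0.12 (edgeR adjusted p = 1.2e-05).

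FBXO32, the muscle ubiquitin ligase atrogin-1 (chromosome 8, positions 123497889 to 123541206, minus strand), went from 9.50, 8.44 and 8.06 CPM in siNC to 26.3, 25.3 and 24.1 in siNC.H2O2. With EP300 siRNA it was 5.68, 5.16 and 5.18 CPM without H2O2 and 6.73, 5.83 and 5.40 with it. Its interaction was -1.38 ± 0.15 (edgeR adjusted p = 0.00028). STC1, the secreted glycoprotein stanniocalcin 1, was at 8.29, 7.66 and 7.16 CPM in siNC, 2.95, 3.17 and 3.22 in siEP300, 17.0, 17.7 and 19.1 in siNC.H2O2 and 2.93, 2.52 and 3.42 in siEP300.H2O2 (interaction -1.29 ± 0.17, edgeR adjusted p = 0.0012). EHD3, an ATPase of endocytic recycling, followed the same course, with means of 7.44, 4.82, 17.6 and 5.39 CPM in that order (SD 0.537, 0.365, 1.16 and 0.424, n = 3) and an interaction of -1.08 ± 0.15. For each of FBXO32, STC1 and EHD3, all 3 siNC.H2O2 libraries lay above the 9 others, and the H2O2 response with EP300 siRNA was not called.

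A second set of genes was already higher with EP300 siRNA alone, and H2O2 added little there. PAPPA, a metalloproteinase that cleaves IGF-binding proteins, was at 8.92, 5.89 and 5.83 CPM in siNC, 14.8, 14.2 and 15.0 in siEP300, 15.5, 19.4 and 21.7 in siNC.H2O2 and 19, 14.9 and 17.0 in siEP300.H2O2. The siNC libraries were low and the other 9 lay together, and the interaction was -1.24 ± 0.22 (edgeR adjusted p = 0.0057). The same layout held for CDH11, a mesenchymal cadherin, with means of 10.7 ± 2.07, 23.5 ± 1.63, 24 ± 2.19 and 25.5 ± 1.67 CPM (SD, n = 3, groups in the same order; interaction -1.05 ± 0.16). SERPINB7, a serine protease inhibitor, rose from 3.88 ± 0.28 CPM to 9.49 ± 1.09 with EP300 siRNA, to 9.61 ± 1.17 with H2O2 and stood at 11 ± 0.447 with both (interaction -1.09 ± 0.17). BHLHE41, a transcriptional repressor of the circadian clock, was at 5.54 ± 0.858, 9.84 ± 0.922, 13 ± 1.30 and 9.43 ± 0.284 CPM (interaction -1.28 ± 0.17, edgeR adjusted p = 0.00088). It was the 1 of 18 clock genes called (5.56%, beside 2.21% of all genes tested called lower).

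In another set, H2O2 acted in opposite directions under the 2 siRNAs. DDIT4, also called REDD1, is an inhibitor of the growth kinase complex mTORC1 that hypoxia and ATF4 induce (chromosome 10, positions 72273920 to 72276036, plus strand). It was at 35.5, 39.6 and 45.6 CPM in siNC, 50.5, 58.4 and 54.7 in siEP300, 60.2, 57.1 and 49.6 in siNC.H2O2 and 32.1, 31.5 and 36.1 in siEP300.H2O2. Either treatment alone raised it, and the 2 together left it near or under the level of untreated cells. The H2O2 response was 0.47 ± 0.10 with control siRNA and -0.71 ± 0.10 with EP300 siRNA, an interaction of -1.18 ± 0.14 (edgeR adjusted p = 0.00055). TCAF2, a regulator of TRP channels, and LURAP1L also rose with H2O2 with control siRNA and fell with EP300 siRNA, with interactions of -1.26 ± 0.20 and -1.04 ± 0.17. The readthrough transcript TMED7-TICAM2 had an interaction of -1.08 ± 0.22 while TICAM2, with which it shares exons, had one of 0.79 ± 0.17; how reads were divided between them is not given in the sources used here, so both values are uncertain.

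**Figure D2:**
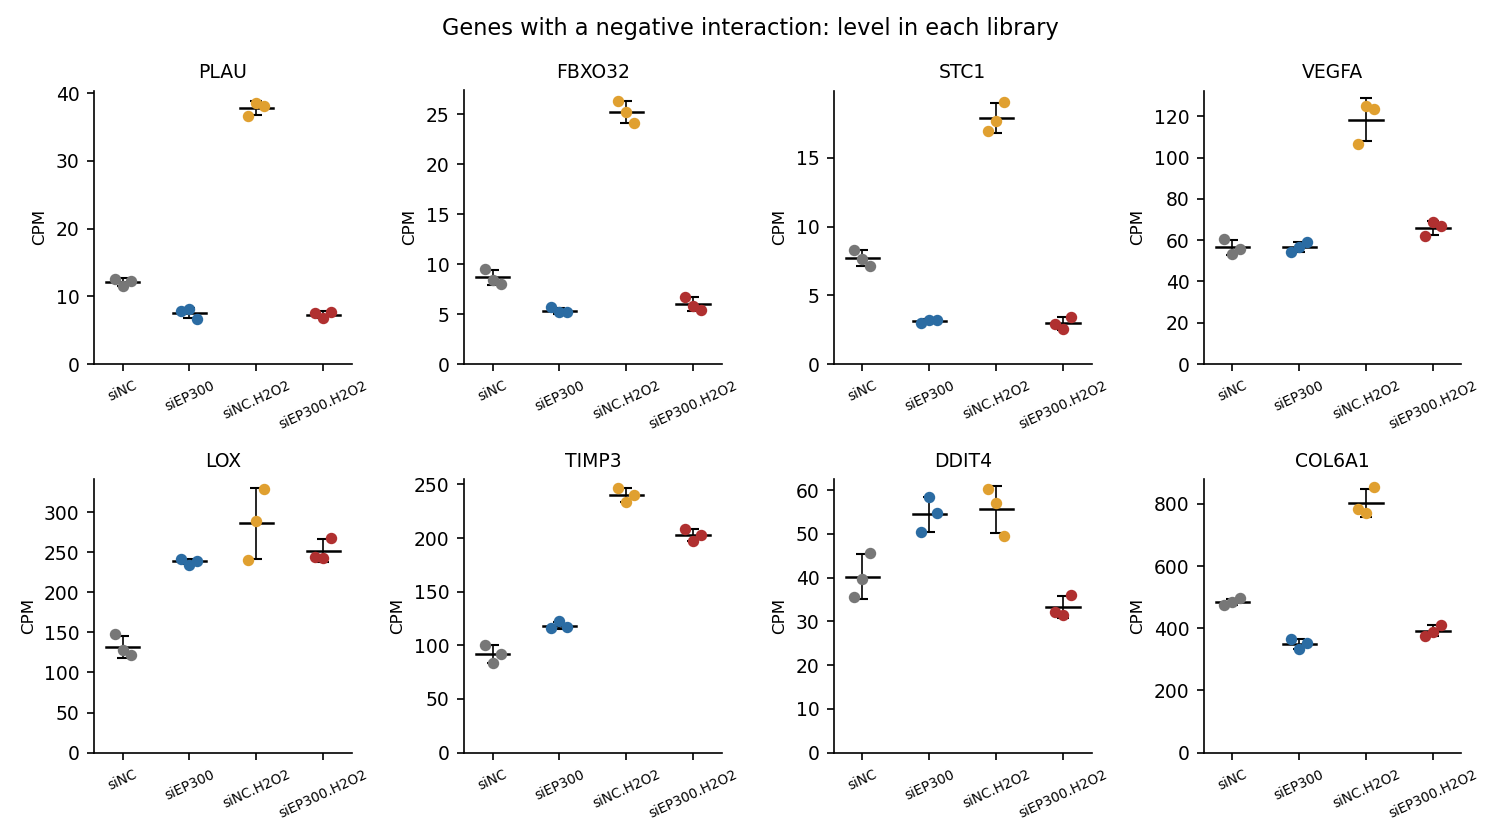
Levels of 8 genes with a negative interaction in every library (points), in CPM on linear axes from 0, with the mean (bar) and SD (whiskers) of the 3 libraries of each group. PLAU, FBXO32 and STC1 were high in the 3 siNC.H2O2 libraries alone, while LOX was low in the 3 siNC libraries and DDIT4 was lowest in siEP300.H2O2.

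Genes of the extracellular matrix made up the list with the largest share of members called lower in the interaction. Of 34 tested genes on a list of matrix and fibroblast markers, 14 were called lower (41.2%) and 0 higher, with a median interaction of -0.40. Their median H2O2 response was 0.33 with control siRNA and -0.20 with EP300 siRNA: with the first 17 rose and 7 fell, and with the second 8 rose and 15 fell. The summed level of the 36 listed genes in the table was 16747 to 18447 CPM in siNC, 19268 to 20046 in siEP300, 16852 to 19279 in siNC.H2O2 and 15033 to 15675 in siEP300.H2O2, where it was lowest. In bulk RNA, fewer cells of a type and less RNA per cell cannot be told apart.

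LOX, the lysyl oxidase that crosslinks collagen and elastin, had the most negative called interaction of the list. It was at 148, 128 and 121 CPM in siNC, 242, 235 and 239 in siEP300, 240.0, 289.6 and 329 in siNC.H2O2 and 244, 243 and 269 in siEP300.H2O2. Only the siNC libraries were low, and the interaction was -1.03 ± 0.14 (edgeR adjusted p = 0.00091). COL6A1, a chain of collagen VI, was at 475, 484 and 496 CPM in siNC, 364, 332 and 351 in siEP300, 783, 772 and 854 in siNC.H2O2 and 376, 389 and 411 in siEP300.H2O2. H2O2 raised COL6A1 1.66-fold with control siRNA and 1.12-fold with EP300 siRNA (interaction -0.56 ± 0.08, edgeR adjusted p = 0.0015). TIMP3, an inhibitor of matrix metalloproteinases, rose under both siRNAs, 2.62-fold and 1.71-fold (interaction -0.61 ± 0.09). SPARC, a collagen-binding matrix protein, did not pass the test for H2O2 with control siRNA (2239.7 ± 9.91 and 2219 ± 31.9 CPM, SD, n = 3) and fell with EP300 siRNA (2406 ± 23.2 to 1804 ± 24.9 CPM; interaction -0.40 ± 0.06, edgeR adjusted p = 0.0027). The other 10 called genes, which include collagens I, IV and VI, fibronectin and tenascin C, had interactions between -0.87 (COL6A3) and -0.36 (FBLN1).

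Secreted factors of senescent cells were another list with lower calls only in the main fit. Of 26 senescence-associated secreted factors tested, 6 were called lower (23.1%) and 0 higher, with a median interaction of -0.11 over the list. The mean level of the list, on the log2 scale relative to siNC, was 0.37, 0.35 and 0.35 in siEP300, 0.996 to 1.08 in siNC.H2O2 and 1.12 to 1.28 in siEP300.H2O2, which was the highest group. PLAU, STC1 and VEGFA are the members described here; PLAU and STC1 rose with H2O2 with control siRNA and were not called with EP300 siRNA, as given above.

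Of 30 TGF-beta and YAP targets, 6 were called lower (20%) and 2 higher (6.67%), with a median of -0.15. TGFBI, a matrix protein, was at 296 to 303 CPM in siNC and 286 to 299.8 in siNC.H2O2, and fell with H2O2 with EP300 siRNA, from 175 to 196 CPM to 129.9 to 141 (interaction -0.42 ± 0.08, edgeR adjusted p = 0.0079). TGFBR1, the type I receptor, also fell with H2O2 with EP300 siRNA (152 ± 7.19 to 107 ± 6.88 CPM) and was 93.6 ± 8.91 and 100.1 ± 9.61 CPM in the 2 control siRNA groups (interaction -0.61 ± 0.11, edgeR adjusted p = 0.0093). ID3, an inhibitor of basic helix-loop-helix factors that BMP signalling induces, went the other way: EP300 siRNA lowered it from 29.7 ± 3.92 to 17.8 ± 0.532 CPM without H2O2, and with H2O2 the levels were 26.2 ± 2.58 and 27.2 ± 4.82 (interaction 0.79 ± 0.17, edgeR adjusted p = 0.021). The ID3 call was held in 4 of 12 fits that each left out 1 library and was lost without siNC 2 or 3, any siEP300 library, siNC.H2O2 8 or siEP300.H2O2 11 or 12 (edgeR adjusted p 0.0524 to 0.0681). The 6 lower calls of the list became 3 without siNC 3, siEP300 4 or 6, siNC.H2O2 8 or 9, or siEP300.H2O2 11 or 12, became 4 without siNC 2 and were 3 with FPKM values.

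All called targets of hypoxia-inducible factor (HIF) had negative interactions. HIF-1 is a transcription factor that low oxygen stabilises, binds DNA at the core letters ACGTG and uses p300 as a coactivator. Of 27 hypoxia and HIF targets tested, 8 were called lower (29.6%) and 0 higher, the median interaction was -0.25, and 2 of the 27 had a positive value. The mean level of the list, on the log2 scale relative to siNC, was 0.26, 0.28 and 0.32 in the siNC.H2O2 libraries and -0.27, -0.26 and -0.17 in the siEP300.H2O2 libraries, with -0.18, -0.18 and -0.19 in siEP300.

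VEGFA, the main growth factor for blood vessels (chromosome 6, positions 43770184 to 43786487, plus strand), was at 60.6, 53.5 and 55.6 CPM in siNC and 54.2, 56.9 and 59.0 in siEP300, which overlapped. The siNC.H2O2 libraries held 107, 125 and 124 CPM, above all others, and the siEP300.H2O2 libraries 62.3, 68.8 and 66.9. EP300 siRNA thus made no called difference to VEGFA without H2O2 (0.00 ± 0.07) and lowered it by 0.84 with H2O2, an interaction of -0.85 ± 0.10 (edgeR adjusted p = 0.00061). NDRG1, a stress gene that hypoxia induces, was not called for H2O2 with control siRNA (93.9 ± 5.93 and 99.1 ± 3.43 CPM, SD, n = 3) and fell with EP300 siRNA (58.1 ± 1.32 to 39.1 ± 2.29; interaction -0.65 ± 0.09, edgeR adjusted p = 0.0013). SLC2A1, the glucose transporter GLUT1, rose with H2O2 1.74-fold with control siRNA and 1.22-fold with EP300 siRNA (interaction -0.51 ± 0.10, edgeR adjusted p = 0.011). DDIT4 and LOX, described above, belong to this list too. CA9, the cell-surface carbonic anhydrase IX, fell from 78.7 ± 8.89 CPM in siNC to 16.7 ± 0.589 in siEP300, was 53.2 ± 6.86 in siNC.H2O2 and was lowest, at 6.76 ± 1.21, in siEP300.H2O2 (interaction -0.73 ± 0.17, edgeR adjusted p = 0.034).

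The promoters of CA9 and LOX show the form ACGTG of the HIF core in called members of this list. Of the 22 list members with a promoter in the RefSeq table (GRCh38.p14; 250 bases before to 50 after the start), 12 held ACGTG on either strand (54.5%), against 26.4% of the 10664 tested genes that have one. Of the 8 called members 5 have a promoter there, and 3 of these hold it. Over the promoters of all genes called lower in the interaction the share was 26.2%, and over those called higher 15.7%. In the 300 bases printed, 5′ to 3′ on the strand of the gene, capitals mark each match; a match describes letters and not a bound site. CA9 is shown from chr9:35673678-35673977 (plus strand) and LOX from chr5:122078210-122078509 (minus strand); none of these matches overlaps another motif searched.
CA9: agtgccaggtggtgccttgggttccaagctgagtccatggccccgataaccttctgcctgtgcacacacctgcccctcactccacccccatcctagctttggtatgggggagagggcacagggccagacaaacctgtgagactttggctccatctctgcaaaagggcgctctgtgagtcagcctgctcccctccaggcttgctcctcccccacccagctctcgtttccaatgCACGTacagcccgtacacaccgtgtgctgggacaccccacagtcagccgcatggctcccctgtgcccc
LOX: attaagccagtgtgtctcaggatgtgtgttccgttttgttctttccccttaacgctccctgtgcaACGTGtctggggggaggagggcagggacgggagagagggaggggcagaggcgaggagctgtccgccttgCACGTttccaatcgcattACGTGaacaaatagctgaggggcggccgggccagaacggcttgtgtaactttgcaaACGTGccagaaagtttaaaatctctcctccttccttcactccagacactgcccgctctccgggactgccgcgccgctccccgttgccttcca

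Targets of ATF4 and the unfolded protein response, the program that cells switch on when protein folding or amino acid supply fails, also had called interactions in 1 direction. Of 33 tested, 9 were called lower (27.3%) and 0 higher, with a median of -0.20. The mean level of the list relative to siNC was 0.45, 0.50 and 0.50 in the siEP300 libraries and 0.21, 0.31 and 0.32 in the siEP300.H2O2 libraries, and lay between 0.02 and 0.09 in siNC.H2O2. CHAC1, an enzyme that degrades glutathione, was at 8.55, 7.97 and 7.10 CPM in siNC, 23.8, 24.2 and 23.5 in siEP300, 7.97, 6.60 and 7.91 in siNC.H2O2 and 11.5, 14 and 13.7 in siEP300.H2O2. Its siEP300 libraries were the highest and its siEP300.H2O2 libraries came next, an interaction of -0.80 ± 0.15 (edgeR adjusted p = 0.0077).

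PSAT1, an enzyme of serine synthesis, had means of 84.0 ± 5.97, 325 ± 10.3, 61.1 ± 3.78 and 169 ± 3.70 CPM (SD, n = 3, in the order siNC, siEP300, siNC.H2O2 and siEP300.H2O2) and an interaction of -0.48 ± 0.09 (edgeR adjusted p = 0.0076). VLDLR, a lipoprotein receptor, fell with H2O2 with EP300 siRNA from 13.5 ± 0.996 to 7.04 ± 0.674 CPM and was 11.5 ± 0.44 and 12.0 ± 0.261 with control siRNA (interaction -1.0 ± 0.13, edgeR adjusted p = 0.00086). ASNS, asparagine synthetase, was at 75.1 ± 0.528, 205 ± 8.07, 48.8 ± 2.33 and 101 ± 8.98 CPM in the same order (interaction -0.41 ± 0.09, edgeR adjusted p = 0.026). Among 20 aminoacyl-tRNA synthetases, which charge tRNAs and many of which ATF4 induces, WARS1 (-0.44 ± 0.07) and GARS1 (-0.43 ± 0.07) were called lower, and HARS1 (0.31 ± 0.08) was called higher but held its call in 2 of 12 fits that left out 1 library, those without siNC 1 or siNC.H2O2 7. The unfolded protein response list had 6 lower calls without siNC 2 or 3, siEP300 4 or 6, or siNC.H2O2 8.

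The ATF4 element is shown for CHAC1 and ASNS. The letters TGATGNAA, in which N is any base, were found on either strand in 1.67% of all promoters of tested genes and in 5 of 28 promoters of the list (17.9%); 3 of the 9 called members, all of which have a promoter in the table, hold it. Of the promoters of all genes called lower, 2.11% hold these letters, and 2.48% of those called higher do. Capitals mark the match, which lies 68 bases before the start in ASNS and 209 bases before it in CHAC1. It overlaps no other motif searched. ASNS is shown from chr7:97872359-97872658 (minus strand) and CHAC1 from chr15:40953221-40953520 (plus strand) of GRCh38.p14.
ASNS: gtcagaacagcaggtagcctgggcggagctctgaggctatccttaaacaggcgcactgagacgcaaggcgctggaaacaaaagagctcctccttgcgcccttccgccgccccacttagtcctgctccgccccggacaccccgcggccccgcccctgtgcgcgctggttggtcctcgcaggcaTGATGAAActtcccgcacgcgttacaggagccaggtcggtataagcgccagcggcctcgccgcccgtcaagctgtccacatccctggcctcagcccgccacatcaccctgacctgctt
CHAC1: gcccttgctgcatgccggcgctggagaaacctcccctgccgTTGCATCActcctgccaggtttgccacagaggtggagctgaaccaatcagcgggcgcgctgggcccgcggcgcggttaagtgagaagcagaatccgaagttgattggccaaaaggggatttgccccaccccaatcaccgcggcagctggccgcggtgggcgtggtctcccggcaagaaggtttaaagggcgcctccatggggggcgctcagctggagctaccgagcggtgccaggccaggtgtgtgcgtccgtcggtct

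Genes of mitosis and genes of DNA replication were called in opposite directions. Of 32 tested genes on a mitosis list, 8 were called lower (25%) and 0 higher, with a median interaction of -0.24. With control siRNA H2O2 raised 20 of the 32 and lowered 1, and with EP300 siRNA it raised 4 and lowered 2. PLK1, a kinase that drives entry into mitosis and spindle assembly (chromosome 16, positions 23677656 to 23690367, plus strand), was at 207, 207 and 217 CPM in siNC, 221, 213 and 216 in siEP300, 299, 283 and 268 in siNC.H2O2 and 206, 222 and 221 in siEP300.H2O2. The siNC.H2O2 libraries were high, the other 3 groups overlapped, and the interaction was -0.43 ± 0.08 (edgeR adjusted p = 0.0067).

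AURKA, Aurora kinase A, rose with H2O2 from 466 ± 19.8 to 673 ± 11.7 CPM with control siRNA and from 556 ± 12.3 to 613 ± 22.5 with EP300 siRNA (interaction -0.39 ± 0.07, edgeR adjusted p = 0.0078). NEK2, a kinase of centrosome separation, rose 1.34-fold with control siRNA and was at 1.01-fold with EP300 siRNA (interaction -0.42 ± 0.08). HMMR, a spindle-associated hyaluronan receptor, and the mitotic cyclin gene CCNB2 were already higher with EP300 siRNA alone: HMMR went from 109 ± 6.90 to 181 ± 3.27 CPM and CCNB2 from 133 ± 4.88 to 187 ± 11, with 197 ± 2.97 and 191 ± 9.62 in siEP300.H2O2 (interactions -0.40 ± 0.08 and -0.34 ± 0.09, edgeR adjusted p = 0.012 and 0.046). The 8 calls became 4 without siEP300 4 or siEP300.H2O2 11, 5 without siEP300 5, siNC.H2O2 8 or siEP300.H2O2 12, and 5 with unfiltered FPKM, and became 18 with offsets for transcript length and GC content.

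Promoters of genes expressed in G2 and M phase often carry the cell cycle homology region, a site bound by the DREAM and MuvB complexes close to the start. Its letters TTNGAA occurred in 24% of all promoters of tested genes and in 21 of the 27 promoters of the mitosis list (77.8%). They were in 5 of the 7 called members with a promoter. Over the promoters of all genes called lower the share was 28.3%, and over those called higher it was 25.6%. PLK1 (chr16:23678639-23678938, plus strand) and CCNB2 (chr15:59104896-59105195, plus strand) each hold 1 match, in capitals, that begins 29 bases before the start and overlaps no other motif searched.
PLK1: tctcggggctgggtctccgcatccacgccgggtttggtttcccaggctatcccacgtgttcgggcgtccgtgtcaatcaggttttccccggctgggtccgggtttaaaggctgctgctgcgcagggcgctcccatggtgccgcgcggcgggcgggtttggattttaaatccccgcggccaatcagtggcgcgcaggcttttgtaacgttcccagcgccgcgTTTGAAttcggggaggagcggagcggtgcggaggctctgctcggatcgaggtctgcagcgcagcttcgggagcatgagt
CCNB2: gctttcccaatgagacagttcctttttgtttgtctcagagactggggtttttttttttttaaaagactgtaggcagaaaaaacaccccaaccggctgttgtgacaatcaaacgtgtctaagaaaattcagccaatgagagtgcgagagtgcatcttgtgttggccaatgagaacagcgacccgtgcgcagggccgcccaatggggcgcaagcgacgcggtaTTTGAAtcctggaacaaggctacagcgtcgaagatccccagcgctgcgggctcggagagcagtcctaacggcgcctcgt

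On the DNA replication list, which holds the MCM helicase, GINS, polymerase and nucleotide supply genes, 11 of 42 tested were called higher (26.2%) and 0 lower, the median interaction was 0.26, and 40 of the 42 had a positive value. With control siRNA H2O2 lowered 30 of the 42, and with EP300 siRNA it lowered 13 and raised 4. RRM2, the regulatory subunit of ribonucleotide reductase, which makes deoxynucleotides, was at 415, 424 and 411 CPM in siNC, 345, 353 and 357 in siEP300, 310.4, 304 and 337 in siNC.H2O2 and 384, 399 and 395 in siEP300.H2O2. It fell with H2O2 with control siRNA and rose with EP300 siRNA, so the order of the 2 siRNAs turned over (interaction 0.55 ± 0.07, edgeR adjusted p = 0.00086). CCNE2, cyclin E2, which drives entry into S phase, was at 44.0, 42.4 and 39.5 CPM in siNC, 37.1, 36.4 and 40.6 in siEP300, 19, 17.9 and 21.8 in siNC.H2O2 and 35.2, 29.3 and 28.5 in siEP300.H2O2. The 3 siNC.H2O2 libraries of CCNE2 lay below the 9 others (interaction 0.80 ± 0.13, edgeR adjusted p = 0.0034).

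GINS1, a subunit of the replicative helicase, was at 81.9 ± 3.57, 103 ± 5.71, 57.6 ± 1.11 and 94.8 ± 3.63 CPM in the order siNC, siEP300, siNC.H2O2 and siEP300.H2O2 (interaction 0.39 ± 0.08, edgeR adjusted p = 0.017). The GINS1 call was lost without siNC 2, siEP300 4 or 6, or siNC.H2O2 8 (edgeR adjusted p 0.0511 to 0.0665). The number of replication genes called depended on single libraries: it was 17 without siNC 1, 18 without siNC.H2O2 7 and 26 without both, and 2 to 6 without any 1 of the other 10 libraries. It was 5 when genes of any count were tested. The letters TTCCCGC of an E2F site were in 15 of 36 promoters of the list (41.7%) against 10.2% of all. They were in 2 of the 9 called members with a promoter. Over the promoters of all genes called higher the share was 9.09%, and over those called lower 7.59%. The letters TGANTCA of AP-1, which p300 also serves, were in 5.91% of the promoters of all genes called lower, 5.79% of those called higher and 4.56% of all.

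**Figure D3:**
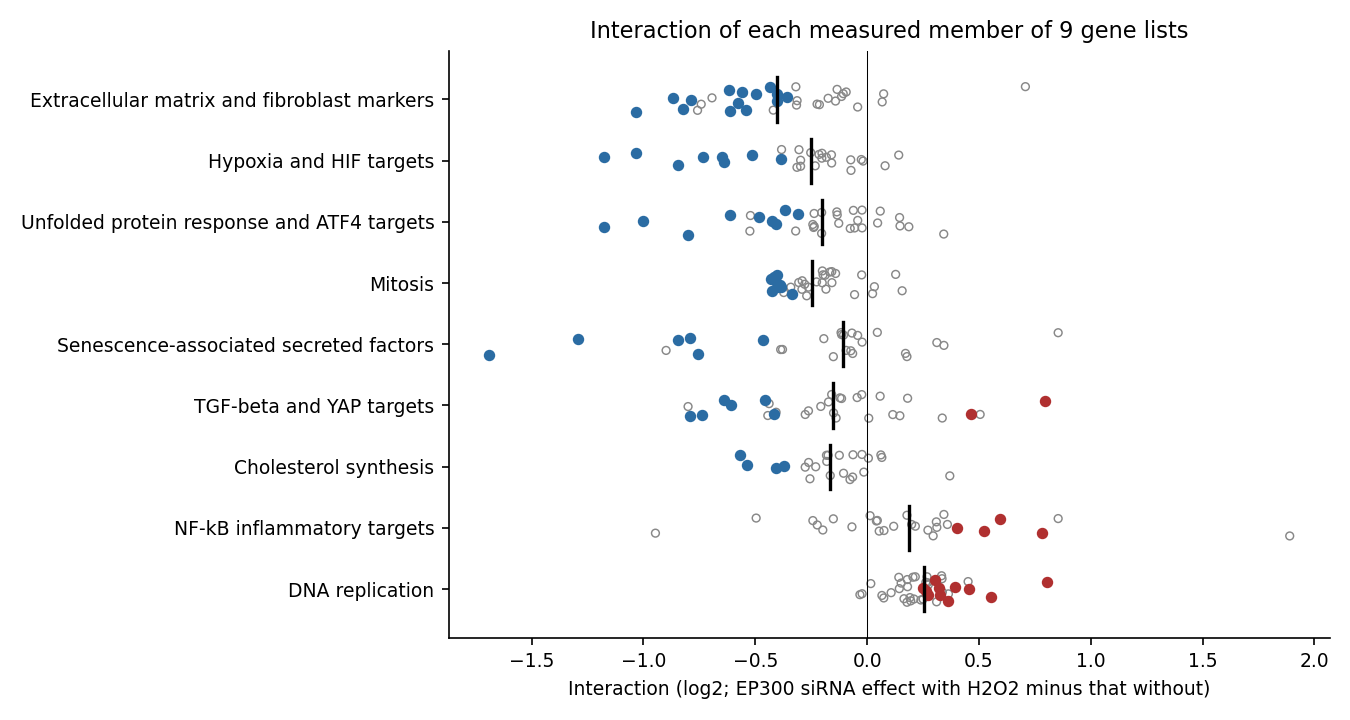
Interaction of every tested member of 9 gene lists, on the log2 scale, with the list median as a black bar. Filled points passed the edgeR test (blue lower, red higher) and open points did not. Medians run from -0.40 for matrix genes to 0.26 for DNA replication, against -0.00082 over all 13171 genes.

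Inflammatory targets of NF-kB, a transcription factor family that p300 also serves as coactivator, had 4 of 28 tested members called higher (14.3%) and 0 lower, with a median of 0.19. IL11, a cytokine of the IL-6 family, was at 14.9, 17.2 and 16.1 CPM in siNC, 14.1, 12.4 and 12.9 in siEP300, 70.3, 64.4 and 60.9 in siNC.H2O2 and 74.2, 102 and 98.3 in siEP300.H2O2. H2O2 raised IL11 4.05-fold with control siRNA and 6.98-fold with EP300 siRNA (interaction 0.78 ± 0.16, edgeR adjusted p = 0.015). BIRC3, an inhibitor of apoptosis, was lowered by EP300 siRNA from 23.2 ± 1.74 to 15.2 ± 0.587 CPM without H2O2, and with H2O2 was at 29.3 ± 3.34 and 29 ± 2.05 (interaction 0.59 ± 0.13, edgeR adjusted p = 0.02). It was the 1 of 33 apoptosis regulators called (3.03%, beside 1.12% of all genes tested called higher). NFKB1 and RELB, subunits of NF-kB itself, rose with H2O2 with EP300 siRNA (1.40-fold and 1.58-fold) and were not called with control siRNA (interactions 0.40 ± 0.10 and 0.52 ± 0.14, edgeR adjusted p = 0.036 and 0.048).

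The NF-kB calls changed with single libraries. Without siEP300 5 the list had 0 calls by edgeR, without siNC 3, siEP300 4, siNC.H2O2 8 or siEP300.H2O2 12 it had 1, and without siNC 2 or siEP300 6 it had 2. IL11 lost its call only without siEP300 5 (edgeR adjusted p = 0.0524), and BIRC3 without siNC 3, siEP300 4 or 5, siNC.H2O2 8 or siEP300.H2O2 12 (0.0535 to 0.0645). NFKB1 and RELB held theirs in 4 and 3 of the 12 fits.

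Under the same rule, most of the 12 genes with the largest positive interactions were ones that EP300 siRNA lowered without H2O2. ATP6V0E2, a subunit of the proton pump of acidic organelles (chromosome 7, positions 149872968 to 149891204, plus strand), was at 21.3, 24.3 and 26.5 CPM in siNC, 4.75, 3.51 and 3.76 in siEP300, 19, 18.9 and 16.1 in siNC.H2O2 and 6.68, 8.12 and 7.77 in siEP300.H2O2. The 4 groups did not overlap, and the 2 EP300 siRNA groups were low in both conditions. EP300 siRNA lowered it by 2.58 ± 0.13 without and by 1.26 ± 0.12 with H2O2 on the log2 scale, an interaction of 1.32 ± 0.18 (edgeR adjusted p = 0.0013). BBS2, a subunit of the complex that sorts cargo to the primary cilium, was at 71.6, 68.5 and 69.0 CPM in siNC, 11.8, 11.1 and 11.6 in siEP300, 59.3, 59.5 and 65.5 in siNC.H2O2 and 17.9, 15.7 and 19.6 in siEP300.H2O2 (interaction 0.81 ± 0.11, edgeR adjusted p = 0.0013).

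MRS2, the magnesium channel of the inner mitochondrial membrane, was at 55.1, 53.7 and 57.1 CPM in siNC and 55.6, 57.3 and 55.3 in siNC.H2O2, which overlapped, and at 17.9, 15.1 and 17.4 in siEP300 and 29, 30.5 and 29.4 in siEP300.H2O2. H2O2 therefore raised it only where EP300 had been targeted, by the calls, and the interaction of 0.80 ± 0.09 tested that difference (edgeR adjusted p = 0.00055). The same held for APLP1, a relative of the amyloid precursor protein (0.87 ± 0.13), PTPN3, a tyrosine phosphatase (0.76 ± 0.13), and MREG, melanoregulin (0.96 ± 0.13), whose siEP300.H2O2 mean of 12.2 ± 0.532 CPM lay beside 12.9 ± 0.769 in siNC and above 6.31 ± 0.70 in siEP300. FUCA1, a lysosomal fucosidase, rose with H2O2 under both siRNAs (1.30-fold and 2.29-fold; interaction 0.82 ± 0.15).

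XPA, which verifies DNA damage in nucleotide excision repair, was at 11.9, 14.3 and 13.4 CPM in siNC, 8.08, 6.80 and 6.27 in siEP300, 11, 8.17 and 9.32 in siNC.H2O2 and 8.83, 9.43 and 9.87 in siEP300.H2O2. The siRNAs differed without H2O2 and overlapped with it, an interaction of 0.88 ± 0.17 (edgeR adjusted p = 0.012). TUBD1, delta tubulin, fell with H2O2 with control siRNA and rose with EP300 siRNA (0.88 ± 0.12), as did RNF227, a RING finger protein (0.97 ± 0.14), which was higher with EP300 siRNA in both conditions. TM7SF2, a sterol reductase, fell to 0.533-fold with control siRNA and was not called with EP300 siRNA (0.78 ± 0.12). These 24 genes, 12 each way, kept call and direction in 264 of 264 results over the 11 other settings. They had been chosen for large interactions called in every fit without 1 library of the same data, so this is not separate evidence.

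**Figure D4:**
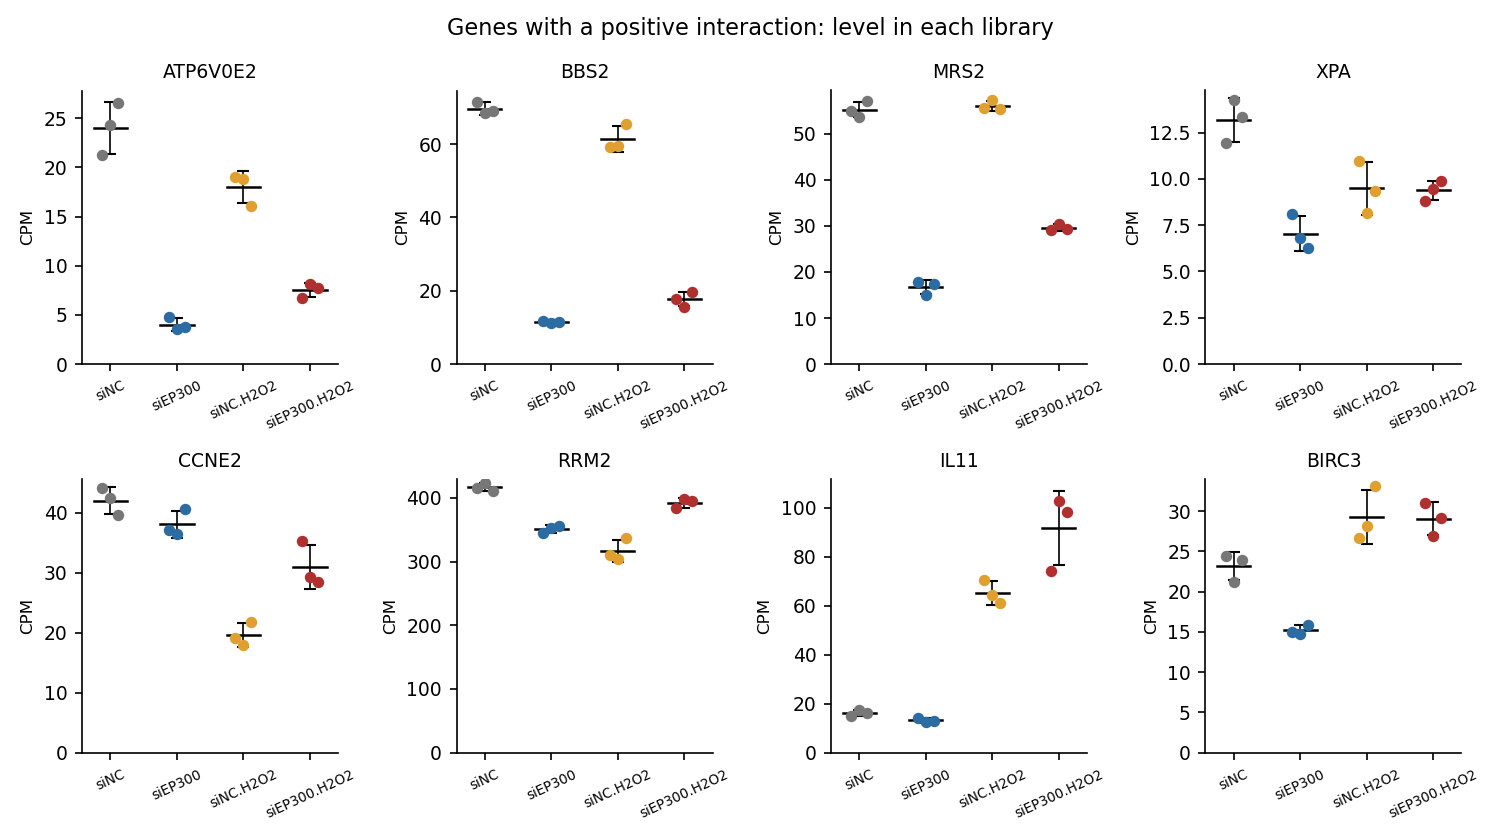
Levels of 8 genes with a positive interaction in every library (points), in CPM on linear axes from 0, with the mean (bar) and SD (whiskers) of 3 libraries per group. In ATP6V0E2, BBS2 and MRS2 the siEP300.H2O2 libraries lay above the siEP300 libraries and below both control siRNA groups, and in CCNE2 and RRM2 the siNC.H2O2 group had the lowest mean.

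All called genes of a cholesterol list had negative interactions. Of 23 cholesterol synthesis genes and their regulators, H2O2 lowered 14 with control siRNA and 20 with EP300 siRNA; 4 were called lower in the interaction (17.4%), 0 higher, and the median was -0.16. INSIG1, which holds the sterol sensor in the endoplasmic reticulum, had means of 286 ± 1.97, 496 ± 18.4, 188 ± 24.9 and 220.2 ± 20.9 CPM (SD, n = 3, in the order siNC, siEP300, siNC.H2O2 and siEP300.H2O2; interaction -0.57 ± 0.12, edgeR adjusted p = 0.017). DHCR7, which makes cholesterol from its last precursor, fell with H2O2 to 0.752-fold with control siRNA and 0.582-fold with EP300 siRNA (interaction -0.37 ± 0.08, edgeR adjusted p = 0.02), and held its call in 8 of 12 fits that left out 1 library. TM7SF2, the sterol reductase described above, is not on this list and had a positive interaction (0.78). Without siEP300 4 the list had 0 calls by edgeR (adjusted p 0.0592 for INSIG1 and 0.0763 for DHCR7), and DHCR7 also lost its call without siNC 2, siEP300 6 or siEP300.H2O2 11 (0.0511 to 0.063). The list had 1 call without siEP300.H2O2 11, and 2 without siNC 2 or siEP300 6, or with unfiltered FPKM.

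Few classic oxidative stress genes passed the test, beside 1.12% of all genes tested called higher and 2.21% called lower. With shares that low, 0 calls in a list of 23 genes say little about these genes. By edgeR 0 of 23 peroxide and superoxide scavengers were called (median interaction 0.03), and at an unadjusted p under 0.05 there was 1 in each direction; DESeq2 and limma-voom also called 0. The same tests called 0 of 42 nuclear-encoded respiratory chain genes (median 0.04; 1 at an unadjusted p under 0.05) and 0 of 78 ribosomal proteins (-0.04; 0 at an unadjusted p under 0.05). Of 23 heat shock proteins edgeR and limma-voom called 0 and DESeq2 called 2 lower (-0.03; 3 higher and 4 lower at an unadjusted p under 0.05). Without siNC 1 and siNC.H2O2 7 together, edgeR called 10 respiratory chain genes, 3 scavengers, 3 ribosomal proteins and 4 heat shock proteins higher, and 1 scavenger and 2 heat shock proteins lower. With offsets for transcript length and GC content it called 4 ribosomal proteins lower, and 2 heat shock proteins higher and 3 lower. Of 26 NRF2 targets, SLC7A11 and TRIM16L were called lower (7.69%). SLC7A11, the cystine importer that feeds glutathione synthesis, was at 23.9, 17.7 and 18.5 CPM in siNC, 105, 109 and 114 in siEP300, 15.4, 15.7 and 21.8 in siNC.H2O2 and 61.1, 52.1 and 53.8 in siEP300.H2O2 (interaction -0.80 ± 0.18, edgeR adjusted p = 0.022). The control siRNA groups of SLC7A11 overlapped and the siEP300 libraries were highest; the call was held in 6 of 12 fits that left out 1 library and was lost without siNC 2 or 3, siEP300 5 or 6, or siEP300.H2O2 11 or 12 (edgeR adjusted p 0.0536 to 0.0742). TRIM16L (-0.59 ± 0.12) lost its call without siEP300 6 (edgeR adjusted p = 0.0533).

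H2O2 raised 23 of 29 p53 targets with control siRNA and 19 with EP300 siRNA, against 17.8% and 15.9% of all genes tested. The interaction called 2 of the 29 (6.9%), both lower: SESN2, a stress sensor that restrains mTORC1 (-0.61 ± 0.11), and the kinase gene PLK2 (-0.48 ± 0.08). PLK2 was at 119 ± 3.61, 122 ± 5.04, 139 ± 4.48 and 101 ± 5.05 CPM in the order siNC, siEP300, siNC.H2O2 and siEP300.H2O2, so H2O2 raised it with one siRNA and lowered it with the other (edgeR adjusted p of the interaction 0.0038). DUSP6, a phosphatase that switches off ERK, was the 1 of 30 immediate early genes called: H2O2 raised it 5.55-fold with control siRNA and 3.33-fold with EP300 siRNA (-0.74 ± 0.11, edgeR adjusted p = 0.0015). Lactate dehydrogenase LDHA was the other of the 20 glycolysis genes called beside SLC2A1 (-0.31 ± 0.08, called in 4 of 12 fits that left out 1 library). HDAC1 (0.37 ± 0.09) was the 1 of 31 acetyltransferase and deacetylase genes called and held its call in 3 of 12 such fits, and NLRC5, the activator of MHC class I genes (-0.40 ± 0.09), was the 1 of 18 antigen presentation genes and held it in 5. Of all genes tested, the interaction called 1.12% higher and 2.21% lower. Beside these shares, 1 or 2 calls in lists this small say little about the lists.

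Lists in which the interaction called no gene by edgeR also included 32 interferon-stimulated genes, 24 fatty acid and lipid droplet genes, 8 metallothioneins and zinc-responsive genes and 40 autophagy and lysosome genes, with medians of 0.06, -0.12, -0.09 and -0.06. Because 1.12% of all genes tested were called higher and 2.21% lower, 0 calls in lists this small say little about these genes. At an unadjusted p under 0.05 the interferon list had 3 higher, the fatty acid list 9 lower, the metallothionein list 1 lower and the autophagy list 4 higher and 8 lower; DESeq2 called 1 fatty acid gene lower and none of the rest, and limma-voom called 0. Of the fatty acid genes 4 were called lower without siNC.H2O2 7, 8 without siNC 1 and siNC.H2O2 7, 6 with offsets for transcript length and GC content and 3 with 1 surrogate variable. Of the autophagy genes 7 were called lower with those offsets, and without siNC 1 and siNC.H2O2 7 there were 3 higher and 2 lower. Without these 2 libraries 4 interferon-stimulated genes were higher and 2 metallothionein genes lower. Among markers of other cell types, edgeR and DESeq2 called 0 of 9 epithelial, 0 of 4 leukocyte and 0 of 10 smooth muscle markers, of which 1, 2 and 0 had an unadjusted p under 0.05, and limma-voom called 1 leukocyte marker. Of 7 endothelial markers ROBO4 was called lower, with 1.19 ± 0.091, 1.43 ± 0.162, 3.75 ± 0.201 and 1.95 ± 0.0279 CPM in the order siNC, siEP300, siNC.H2O2 and siEP300.H2O2 (interaction -1.21 ± 0.23, edgeR adjusted p = 0.01). The summed level of the 11 endothelial markers in the table was 39.4 to 46.4 CPM in siNC, 22 to 23.5 in siEP300, 38.7 to 44.0 in siNC.H2O2 and 18.3 to 20.01 in siEP300.H2O2, and 6 of them were under 1 CPM in every library. The part of these cell type markers in the results was not tested.

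The number of genes called moved with single libraries and with the unit. Leaving out 1 library gave 59 to 258 higher and 137 to 459 lower, with 258 and 423 without siNC 1 and 250 and 459 without siNC.H2O2 7. On the within-group axis these 2 libraries scored 17.6 and -13.9. Leaving out siEP300.H2O2 10, which scored 15.8, gave 112 higher and 244 lower, and leaving out siNC.H2O2 9, which scored 12.1, gave 128 and 231. Without siNC 1 and siNC.H2O2 7 together, 767 were higher and 1229 lower, and 147 of the 148 and 291 of the 291 were among them in the same direction. That fit used a subset of the same libraries and kept siEP300.H2O2 10, so the overlap is not separate evidence. In the main edgeR fit, the matrix, mitosis, hypoxia, unfolded protein response and cholesterol lists had 0 higher calls. The replication and NF-kB lists had 0 lower ones. Among fits without 1 library, the matrix list had up to 1 higher call and the NF-kB list up to 1 lower call. In other settings the matrix, unfolded protein response and cholesterol lists had up to 1 higher call, and the NF-kB list up to 1 lower. The mitosis, hypoxia and replication lists had 0 such calls in every setting. At an unadjusted p under 0.05 in the main fit, 1 matrix gene and 1 mitosis gene were higher. The hypoxia, unfolded protein response and cholesterol lists had 0 higher there. Lower there were 0 replication genes and 3 NF-kB targets. DESeq2 and limma-voom called 0 genes of these lists in those directions. Without siNC 1 and siNC.H2O2 7, the lower calls were 23 for matrix, 17 for hypoxia, 14 for unfolded protein response, 18 for mitosis, 12 for TGF-beta and YAP and 9 for cholesterol genes, and the higher calls were 8 for NF-kB targets. Called both in the full set and in each fit without 1 library were 45 higher and 125 lower genes. Higher genes were 33.7% of those called from counts and 58.7% with limma on log2(FPKM + 1), which gave 325 higher and 229 lower. Across genes, the interaction had a Spearman correlation of -0.185 with transcript length, 0.115 with GC content and -0.238 with the loadings on the within-group axis; the part of that axis in the calls was not tested.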

How the data were processed

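RNA of 12 libraries was sequenced by BGI's procedure, per the labels. Estimated counts per gene symbol were deposited by the authors unscaled, with 12% to 13.8% of a library's values not whole, and were rounded here. The deposited FPKM table, which divides by gene length and library size, served as an alternative. HISAT, Bowtie2 and the build GRCh38.p13 are named in the submitters' processing notes. Versions and roles, the counter, annotation and strand setting are not given in the sources read, so genes that overlap others or share reads with copies are uncertain.

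Genes were kept by filterByExpr (minimum count 10) and tested in R 4.3.3 with edgeR 4.0.16 (TMM factors, 1 mean per group over 12 libraries, quasi-likelihood, two-sided, Benjamini-Hochberg). The code was tested on simulated counts. Replicate pairs differed by more than sampling noise, so none was merged. Alternatives used DESeq2 1.42.0, limma 3.58.1, upper-quartile scaling, other filters, FPKM with a pseudocount of 1 or 0.1, offsets for length and GC content, 1 surrogate variable (sva 3.50.0) and leaving out libraries. Gene positions, lengths and GC content come from GENCODE 29 (GRCh38), in which 16984 symbols (98.76%) matched.

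The interaction, the gene lists and the rules were chosen with earlier results of these data known. Genes named are EP300, MLF1 and CREBBP, the 12 largest interactions each way among genes called in every fit without 1 library whose mean reached 5 CPM, and up to 4 called members per list with the smallest adjusted p. CA9, ASNS, CCNB2, TICAM2 and the genes at the ends of ranges, like the motifs and the promoters printed, were chosen after their values were seen. Some genes that this rule takes are not reported here.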

Additional observations from a re-analysis of the deposited data

Results flagged for a closer look

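The test of the difference itself found that the EP300 siRNA effect differed between the 2 conditions for 148 genes with a higher and 291 with a lower value with H2O2 (edgeR, adjusted p under 0.05), and the genes that the naming rule takes, that are reported here and that passed it are given with their interactions on the log2 scale. The most negative belonged to PLAU (-1.69), FBXO32 (-1.38), STC1 (-1.29), BHLHE41 (-1.28), TCAF2 (-1.26), PAPPA (-1.24), ROBO4 (-1.21), DDIT4 (-1.18), SERPINB7 (-1.09), EHD3 (-1.08) and TMED7-TICAM2 (-1.08). They were followed by CDH11 (-1.05), LURAP1L (-1.04), LOX (-1.03), VLDLR (-1.0), VEGFA (-0.85), CHAC1 (-0.80), SLC7A11 (-0.80), DUSP6 (-0.74), NDRG1 (-0.65) and TIMP3 (-0.61). Negative values of smaller size were those of SESN2 (-0.61), TGFBR1 (-0.61), TRIM16L (-0.59), INSIG1 (-0.57), COL6A1 (-0.56), SLC2A1 (-0.51), PSAT1 (-0.48), PLK2 (-0.48), WARS1 (-0.44) and PLK1 (-0.43). Further negative ones were GARS1 (-0.43), TGFBI (-0.42), NEK2 (-0.42), HMMR (-0.40), SPARC (-0.40), NLRC5 (-0.40), AURKA (-0.39), DHCR7 (-0.37) and LDHA (-0.31). The largest positive interactions were those of ATP6V0E2 (1.32), RNF227 (0.97), MREG (0.96), TUBD1 (0.88), XPA (0.88), APLP1 (0.87), FUCA1 (0.82), BBS2 (0.81), CCNE2 (0.80), MRS2 (0.80) and ID3 (0.79). Smaller positive ones were IL11 (0.78), TM7SF2 (0.78), PTPN3 (0.76), BIRC3 (0.59), RRM2 (0.55), RELB (0.52), NFKB1 (0.40), GINS1 (0.39), HDAC1 (0.37) and HARS1 (0.31).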

How the results depend on the processing

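Leaving out 1 library gave 59 to 258 genes higher and 137 to 459 lower in the interaction, and leaving out siNC 1 and siNC.H2O2 7 together gave 767 and 1229. Offsets for transcript length and GC content gave 418 higher and 789 lower, and 1 surrogate variable gave 252 and 474. With limma on FPKM, 325 genes were higher at a pseudocount of 1, 265 at 0.1 and 275 without a filter, with 229, 195 and 224 lower; the share of higher genes was then 58.7%, 57.6% and 55.1% against 33.7% from counts. DESeq2 (214 and 403), upper-quartile scaling (163 and 235), limma-voom (134 and 280), no filter (120 and 279) and a mean of at least 1 CPM (151 and 292) stayed within 1.5 times of the counts reported, as did the counts of the simple comparisons in every setting run. The cause of these shifts was not tested. Of the 65 called genes that the rule takes, reported or not, 17 lost the call in at least 1 setting, in 114 results of which 98 left out 1 library, and none changed sign. EP300 passed the threshold without siNC 1 and siNC.H2O2 7 (-0.59), its highest siNC and lowest siNC.H2O2 library, and in 0 of the fits that left out 1 library. No paired analysis was possible because the labels number the libraries 1 to 12, with no number shared between groups.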
